A study of Arabidopsis thaliana with 9 samples.

Results

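The preys that the protein kinase PKS5 recovered from an Arabidopsis thaliana cDNA library in a yeast two-hybrid screen were set against the preys recovered by the related kinase SOS2. The screen splits a transcription factor, one piece going on the bait protein and the other on each library protein, or prey. A cell whose bait and prey meet makes the HIS3 enzyme and can grow with no histidine supplied. The comparison used 6 of the 9 libraries of the series, 3 with PKS5 as bait and 3 with SOS2 as bait, and the libraries of a further bait (SCAB1) were left out. Apart from recovery time all 6 were treated alike. Selection was on medium lacking tryptophan, leucine and histidine that held 1 mM 3-AT, an inhibitor of HIS3, with more than 3000 colonies per sample. Replicates 1, 2 and 3 of each bait had recovery times of 0, 2 and 4 h. The labels do not say that the libraries of a bait came from separate cultures, so p-values measure the spread between these libraries. That spread includes any effect of recovery time, which differed between the 3 libraries of each bait. The labels also do not give the form of each kinase used as bait, and no unselected library is labelled.

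PKS5 and SOS2 belong to the CIPK (also called SnRK3) family of plant protein kinases. These kinases carry a regulatory NAF motif through which calcineurin B-like (CBL) calcium sensors bind and activate them. SOS2, also named CIPK24, acts with the sensor SOS3 on the sodium/proton antiporter SOS1 in salt tolerance. PKS5, also named CIPK11, phosphorylates the plasma membrane proton pump and thereby lowers its activity, and the DnaJ cochaperone J3 counteracts PKS5. The series offered a direct comparison of what these relatives recover from 1 library under the same selection.

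Each library held 1952608 to 3288437 reads, and the 3 reads that a count of 0 still allows came to 0.912 to 1.54 CPM (reads scaled to a total of 1000000 per library). These limits cover counting error only, because the reads are PCR copies. Each distinct read was seen 67.4 to 137 times in PKS5 libraries and 45.9 to 87.7 times in SOS2 libraries on average. Levels in CPM count the sequenced reads of a gene, PCR copies included. They do not measure how many inserts were recovered or how strongly 2 proteins bind. Of 10224 genes in the table, 3453 passed the filter on low values (in 3 or more libraries, about 10 reads or more for a library of median size) and were tested. A gene could pass through the libraries of 1 bait alone. PKS5 replicate 2 stood apart in its weak background of rare preys. It had 2111 genes with at least 10 reads, against 3333 and 3391 in the other PKS5 libraries and 2966 to 4864 in SOS2 libraries.

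The reads of PKS5 sat on fewer preys than those of SOS2. The 10 highest genes held 69.8, 81.4 and 68.5% of the reads in PKS5 libraries, against 33.7, 47.3 and 41.4% in SOS2 libraries. Every PKS5 library was above every SOS2 library in this share. Its mean was 73.2 ± 7.1% in PKS5 and 40.8 ± 6.8% in SOS2 (SD, n = 3 each, exact permutation test, two-sided p = 0.1, the smallest that 3 against 3 libraries can give). The effective number of genes, the exponential of the Shannon entropy of the read shares, was 42.8, 19.6 and 48.9 in PKS5 libraries and 284, 106 and 133 in SOS2 libraries (exact p = 0.1). The first 4, 3 and 5 genes carried the upper 50% of the reads in PKS5 libraries, against 40, 13 and 20 genes in SOS2 libraries. In contrast, genes with 10 or more reads overlapped in number between the baits, at 2945.0 ± 723 in PKS5 and 3689 ± 1026 in SOS2 (exact p = 0.6). The single highest gene held 27.9 ± 4.1% in PKS5 and 23.2 ± 5.6% in SOS2, values that also overlapped (exact p = 0.3). Counted in distinct reads the 10 highest genes held 4.23% in PKS5 and 4.40% in SOS2, a difference of -0.17 percentage points (exact p = 0.9). Genes with 10 or more distinct reads averaged 560.3 in PKS5 and 1025 in SOS2 (exact p = 0.1). PKS5 libraries held 26784 ± 4640 distinct reads and SOS2 libraries 42616 ± 5160.5, values that did not overlap (exact p = 0.1).

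**Figure D1:**
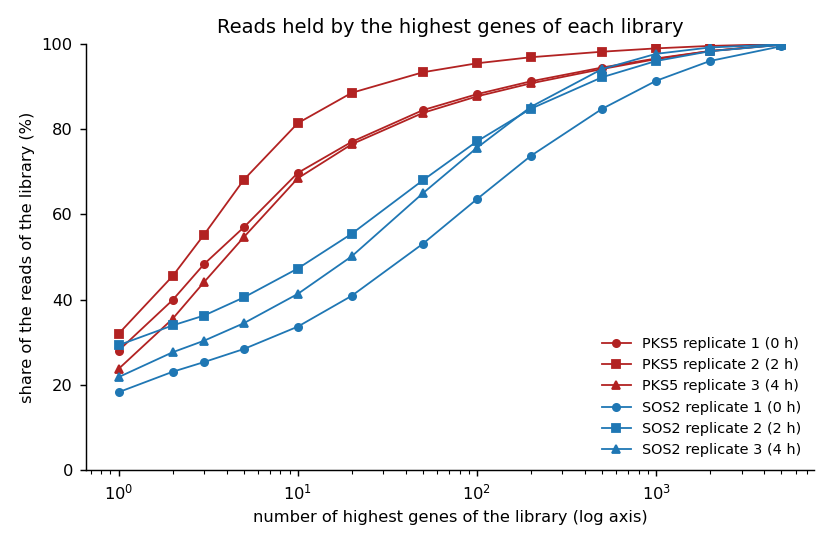
Cumulative share of the reads of each library (%) held by its highest genes, against the number of genes on a log axis, with 1 line for each of the 3 PKS5 and 3 SOS2 libraries. At 10 genes the PKS5 libraries lie between 68.5 and 81.4% and the SOS2 libraries between 33.7 and 47.3%.

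Genes were compared one by one with limma-voom, and an adjusted p under 0.05 was called. Calls were recomputed in 14 alternative fits, with other scalings, filters or weights, distinct reads, a replicate block or 1 library left out. Of the 3453 tested genes 1156 were called, a share of 33.5%, with 244 (7.07%) higher and 912 (26.4%) lower in PKS5 than in SOS2. This balance moved with the processing. Higher calls made up 21.1% of all calls here, 14.01% with library size alone (123 higher and 755 lower) and 51.1% with at least 100 reads per gene (436 higher and 418 lower). The genes called higher held 85.1 ± 5.5% of all reads in PKS5 and 5.95 ± 0.43% in SOS2. Those called lower held 2.66 ± 1.25% in PKS5 and 78.1 ± 5.5% in SOS2. Among the genes called higher, 95 averaged at least 100 CPM and 32 at least 1000 CPM in PKS5. Among those called lower, 462 averaged at least 100 CPM and 104 at least 1000 CPM in SOS2. All 3 PKS5 values lay above all 3 SOS2 values in 146 of the 244 genes called higher, against 4.29% of all tested genes in that arrangement. All 3 SOS2 values lay above in 885 of the 912 called lower, against 27.8% of all tested genes. The median log2 difference of all tested genes was -0.13, and with other scalings it ran from -0.55 for library size alone to 0.31 after dropping those genes that exceed 5% of a library. With distinct reads 83 of 189 testable genes kept their call as higher and 288 of 762 as lower. Libraries compared within 1 recovery time gave the same direction for 228, 213 and 244 of the 244 genes at 0, 2 and 4 h, and for 912, 912 and 899 of the 912 genes. These genes were chosen from the same libraries, so the counts are a description.

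**Figure D2:**
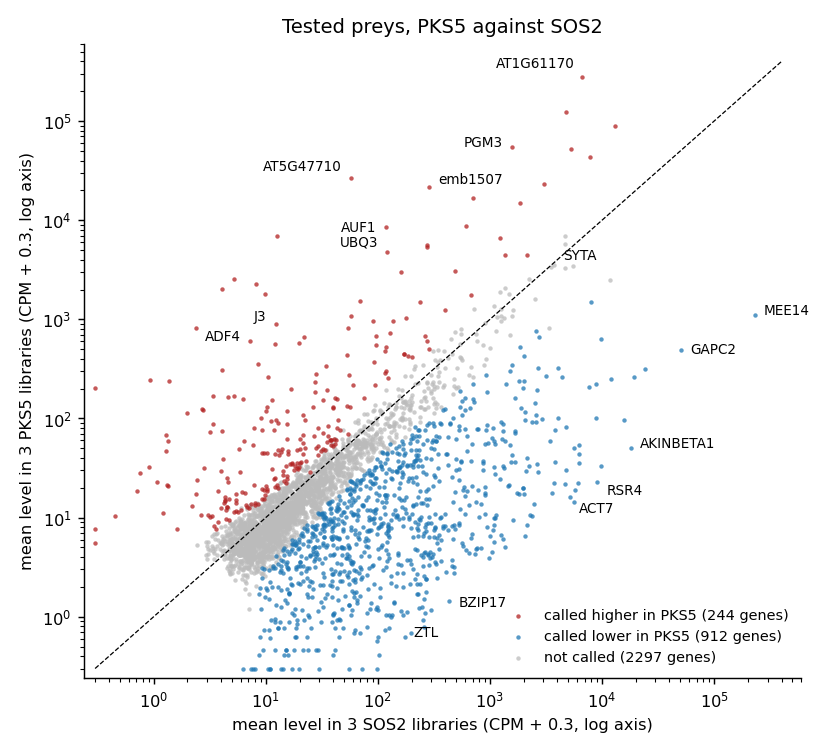
Mean level of each of the 3453 tested genes in 3 PKS5 libraries (vertical) against 3 SOS2 libraries (horizontal), in CPM plus 0.3 on log axes. Red points are the 244 genes called higher and blue points the 912 called lower in PKS5, and the dashed line marks equal levels.

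The leading preys of PKS5 were mostly present with SOS2 too, at lower levels. Of the 10 highest genes of PKS5, 9 averaged at least 100 CPM and 7 at least 1000 CPM in SOS2, and 1 was also among the 10 highest of SOS2. AT1G61170 had 280587, 320122 and 237634 CPM in PKS5 libraries, against 5134, 5576 and 8991 CPM in SOS2 libraries (limma-voom log2 difference of 5.78 with SE 0.86, adjusted p = 1.10e-06). It ranked 1 in PKS5 and 18 in SOS2, and the groups did not overlap. AT1G70790 had 118386, 135057 and 117358 CPM in PKS5 libraries, against 4357, 4717 and 5167 CPM in SOS2 libraries (limma-voom log2 difference of 5.04 with SE 0.83, adjusted p = 5.65e-06). AT3G47490 was the gene that led both lists, ranking 3 in PKS5 and 7 in SOS2. It had 84488, 97649 and 86305 CPM in PKS5 libraries, against 9314, 15932 and 14126 CPM in SOS2 libraries, a log2 difference of 3.12 (adjusted p = 0.00429 by limma-voom). PGM3, a cytosolic phosphoglucomutase that interconverts glucose phosphates, had 43588, 63996 and 57342 CPM in PKS5 libraries, against 1382, 1111 and 2232 CPM in SOS2 libraries (limma-voom log2 difference of 5.54 with SE 0.82, adjusted p = 9.96e-07). AT1G01730 and AT5G37740 ranked 5 and 6 in PKS5 and 27 and 16 in SOS2. Their log2 differences were 3.66 and 2.92, and the call of AT5G37740 was lost without SOS2 replicate 2 (adjusted p = 0.0656 by limma-voom, range over alternatives 3.93e-28 to 0.0656). Counted in distinct reads the leading differences were smaller, at 1.95 log2 units for AT1G61170 and 1.43 for AT1G70790. Over the 10 highest genes of PKS5 the median log2 difference was 5.04 in reads and 1.45 in distinct reads.

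Among the 10 leading preys of PKS5, AT5G47710 and emb1507 had the lowest levels with SOS2. AT5G47710 had 24877, 23531 and 30767 CPM in PKS5 libraries, against 55.1, 77.8 and 38.0 CPM in SOS2 libraries, a mean 463 times as high in PKS5 (limma-voom log2 difference of 9.33 with SE 0.71, adjusted p = 4.81e-12). It came as 34, 29 and 25 distinct reads in PKS5 libraries and 3, 2 and 2 in SOS2 libraries. The spliceosomal RNA helicase emb1507 had 17953, 21916 and 24563 CPM in PKS5 libraries, against 306, 183 and 365 CPM in SOS2 libraries (limma-voom log2 difference of 6.72 with SE 0.73, adjusted p = 3.95e-09). Its call held with distinct reads, at a smaller difference (log2 3.02, adjusted p = 1.05e-07 by limma-voom). MYB3, a repressor of phenylpropanoid genes, had 23726, 20884 and 24792 CPM in PKS5 libraries, against 2471, 2816 and 3816 CPM in SOS2 libraries (log2 difference 3.34). UBQ11, a polyubiquitin gene, had 14399, 19742 and 16024 CPM in PKS5 libraries, against 719, 465 and 939 CPM in SOS2 libraries (log2 difference 5.05). No gene had at least 100 CPM in every PKS5 library and at most 3 reads in every SOS2 library, of 180 genes that reached that level with PKS5. In the other direction this held for 8 of 520 genes (1.54%), led by BZIP17.

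**Figure D3:**
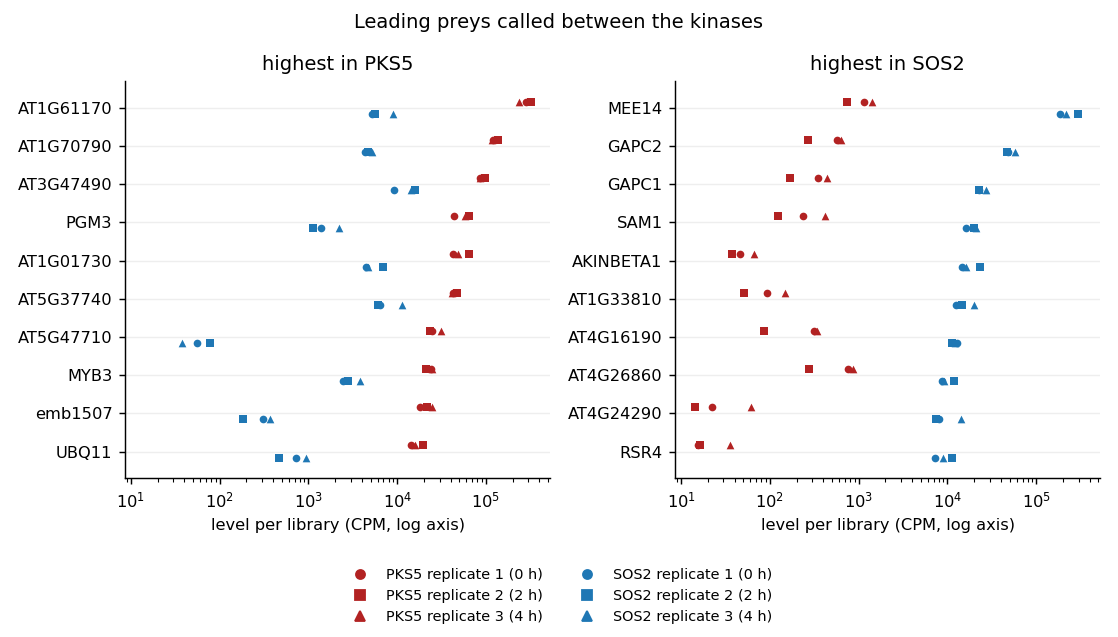
Level in each library (CPM, log axis) of the 10 highest genes called higher in PKS5 (left) and the 10 highest called lower (right), among genes whose groups did not overlap. Points are single libraries, red for PKS5 and blue for SOS2, with shapes for the replicates. By this choice of genes all PKS5 points lie above the SOS2 points at left and below them at right.

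Most leading preys of SOS2 were lower with PKS5. Of the 10 highest genes of SOS2, 8 were called lower in PKS5, and 8 averaged at least 100 CPM and 3 at least 1000 CPM there. The exceptions were AT3G47490, described above as higher in PKS5, and FBA5, a fructose-bisphosphate aldolase that was named here after its values were seen. FBA5 ranked 31 in PKS5 and 9 in SOS2 and had 1914.7, 2228 and 3254 CPM in PKS5 libraries, against 9193, 14126 and 11931 CPM in SOS2 libraries (log2 difference -1.87, adjusted p = 0.0509 by limma-voom), and it was called with distinct reads (log2 -0.96, adjusted p = 0.000374 by limma-voom). The genes that follow are the 10 highest called lower in PKS5 without overlap. MEE14, a gene named for an embryo arrest mutant, had 1135, 734 and 1422 CPM in PKS5 libraries, against 182889.9, 293150.5 and 218300.1 CPM in SOS2 libraries (limma-voom log2 difference of -7.30 with SE 0.76, adjusted p = 1.49e-09). This gene held 0.110% of the reads of PKS5 and 23.1% of those of SOS2. GAPC2 and GAPC1, cytosolic glyceraldehyde-3-phosphate dehydrogenases, were the next. GAPC2 had 572, 269 and 626 CPM in PKS5 libraries, against 47849, 46360.0 and 58218 CPM in SOS2 libraries (limma-voom log2 difference of -6.36 with SE 0.72, adjusted p = 8.23e-09), and GAPC1 had a log2 difference of -5.97. Both genes are close in sequence, so it is uncertain which of them a read came from. SAM1, which makes the methyl donor S-adenosylmethionine, had 239, 125 and 419 CPM in PKS5 libraries, against 16138, 20149 and 21164 CPM in SOS2 libraries (limma-voom log2 difference of -6.01 with SE 0.67, adjusted p = 6.42e-09). AKINBETA1, which targets and regulates the energy-sensing kinase SnRK1, had 45.5, 37.7 and 67.0 CPM in PKS5 libraries, against 14434, 23288 and 16310.5 CPM in SOS2 libraries (limma-voom log2 difference of -8.15 with SE 0.68, adjusted p = 1.79e-11). RSR4, an enzyme of vitamin B6 synthesis, had 15.6, 16.5 and 35.4 CPM in PKS5 libraries, against 7169.5, 11225 and 8919.7 CPM in SOS2 libraries, and its mean was 404 times as high in SOS2. AT1G33810, AT4G16190, AT4G26860 and AT4G24290 completed these 10, with log2 differences of -7.09, -5.48, -3.77 and -8.11. The calls of all 10 held under each of the 14 alternative fits. In distinct reads the differences were smaller here too, at -1.21 for MEE14 and -1.65 for GAPC2, and the median size over the 10 was 1.61 log2 units, against 6.73 in reads.

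The next question was which preys both kinases recovered. At least 100 CPM in each of the 6 libraries was reached by 120 genes, which are 66.7% of the 180 genes that reached it in all PKS5 libraries and 23.1% of the 520 that did so in all SOS2 libraries. These shared genes held 85.7 ± 5.0% of the reads in PKS5 and 52.0 ± 5.1% in SOS2. Within the 120, 28 genes (23.3%) were called higher in PKS5 and 21 (17.5%) lower by limma-voom, against 7.07 and 26.4% of all tested genes. All 120 had to be high in both baits. The other 71 were not called. Without PKS5 replicate 2 the shared genes numbered 184. Any library of PKS5 and any of SOS2 had 12 to 16 of their 50 highest genes in common (mean 14.3 over 9 pairs), and 2 libraries of 1 bait had 43 to 46 in common over 6 pairs.

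A prey was counted as recovered at a similar level if it was shared, its groups overlapped and its log2 difference lay between -1 and 1. This held for 53 of the 120 genes, of which 31 have a gene symbol, and they took 4.64 ± 1.32% of the reads in PKS5 and 5.15 ± 1.42% in SOS2. Of the 53, 0 were called by limma-voom and 0 by limma-trend, and 2 had an unadjusted p under 0.05, but a p that misses the threshold does not show equal levels. The rule itself fixed the limma-voom count, because all 244 genes called higher and all 912 called lower differed by at least 1 log2 unit. The 95% interval of the difference lay within -1 to 1 for 0 of them and within -2 to 2 for 49 (a bound chosen after seeing the data), with a median SE of 0.53. SYTA, a synaptotagmin that tethers the endoplasmic reticulum to the plasma membrane, had 3316, 3077 and 4159 CPM in PKS5 libraries, against 3251, 2194 and 5736 CPM in SOS2 libraries. Its log2 difference was 0.43 with an interval of -1.03 to 1.89. AT5G05360 was the highest of these preys and had 4851, 5866 and 6703 CPM in PKS5 libraries, against 3754, 5515 and 4633 CPM in SOS2 libraries (interval -0.77 to 2.24). The metallothionein MT2A, a small cysteine-rich metal binder, had 4455, 1754 and 3780.3 CPM in PKS5 libraries, against 6901, 5859.9 and 1384 CPM in SOS2 libraries (log2 difference 0.10, interval -1.25 to 1.45). The lowest MT2A value of each bait came from PKS5 replicate 2 and SOS2 replicate 3. DELTA-TIP, a water channel of the vacuolar membrane, had 2842, 2006 and 2777 CPM in PKS5 libraries, against 2529, 2278 and 1919.8 CPM in SOS2 libraries (interval -0.72 to 1.89). AT1G25275 and AT2G45180 differed by 0.55 and -0.37 log2 units. The glycine-rich proteins GRP3S and GRP-3 differed by 0.41 and -0.10. The extensin-like protein ELP differed by 0.88, with an interval of -0.32 to 2.09. UBQ10 had 2169, 1369 and 1837 CPM in PKS5 libraries, against 1545, 1169.7 and 1740.3 CPM in SOS2 libraries (interval -0.61 to 1.95).

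**Figure D4:**
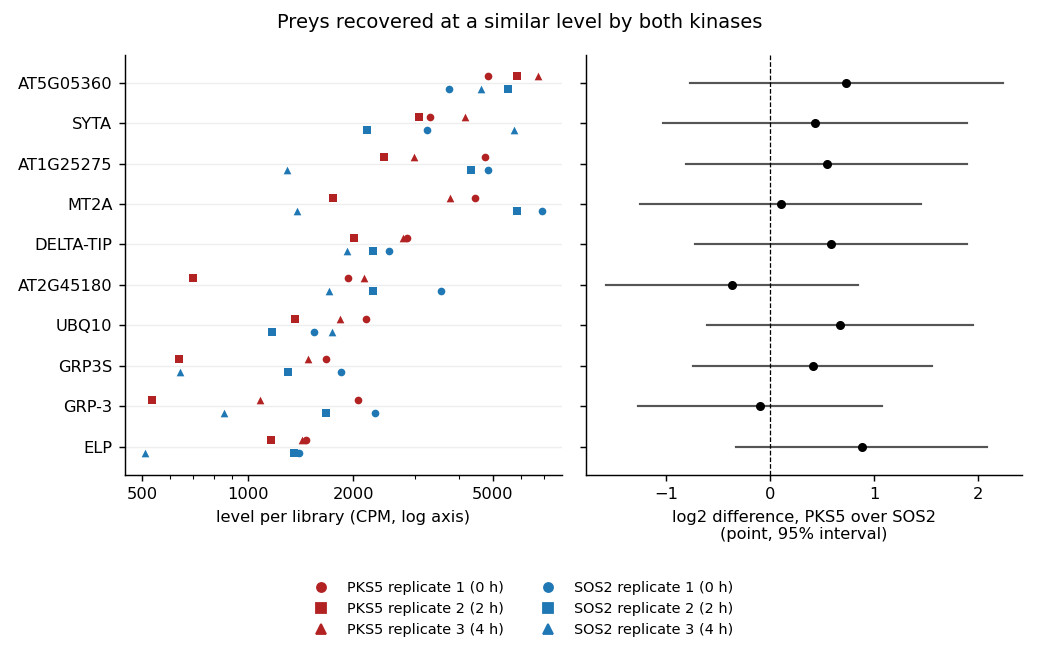
Left, level in each library (CPM, log axis) of the 10 highest preys recovered at a similar level, red for PKS5 and blue for SOS2. Right, log2 difference of PKS5 over SOS2 with its 95% interval, which spans 0 in each of the 10.

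Protein classes were compared by the share of reads their members took, over 39 gene lists with 692 genes in the table, of which 388 were tested. Each list was built from gene symbols and locus numbers with earlier results of these data known. In 9 classes all 3 PKS5 shares lay above all 3 SOS2 shares, in 18 all SOS2 shares lay above, and in 12 they overlapped. The exact permutation test can give no less than 0.1 for 3 against 3 libraries, which is 0.144 after Benjamini-Hochberg adjustment over the 39 classes, so no class passed 0.05. In all, 28 class members were called higher (7.22%) and 108 lower (27.8%) by limma-voom, against 7.07 and 26.4% of all tested genes. Single members often set a share. Without its highest member (an alternative chosen after seeing the data) the mean share was higher in SOS2 in 8 of the 9 classes on the PKS5 side, all but ubiquitin and SUMO. Among these 8 the shares then overlapped for clade A PP2C phosphatases, chaperones, splicing proteins and lipid-transfer proteins. With distinct reads 16 of 26 testable calls in the first direction and 47 of 101 in the second held.

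**Figure D5:**
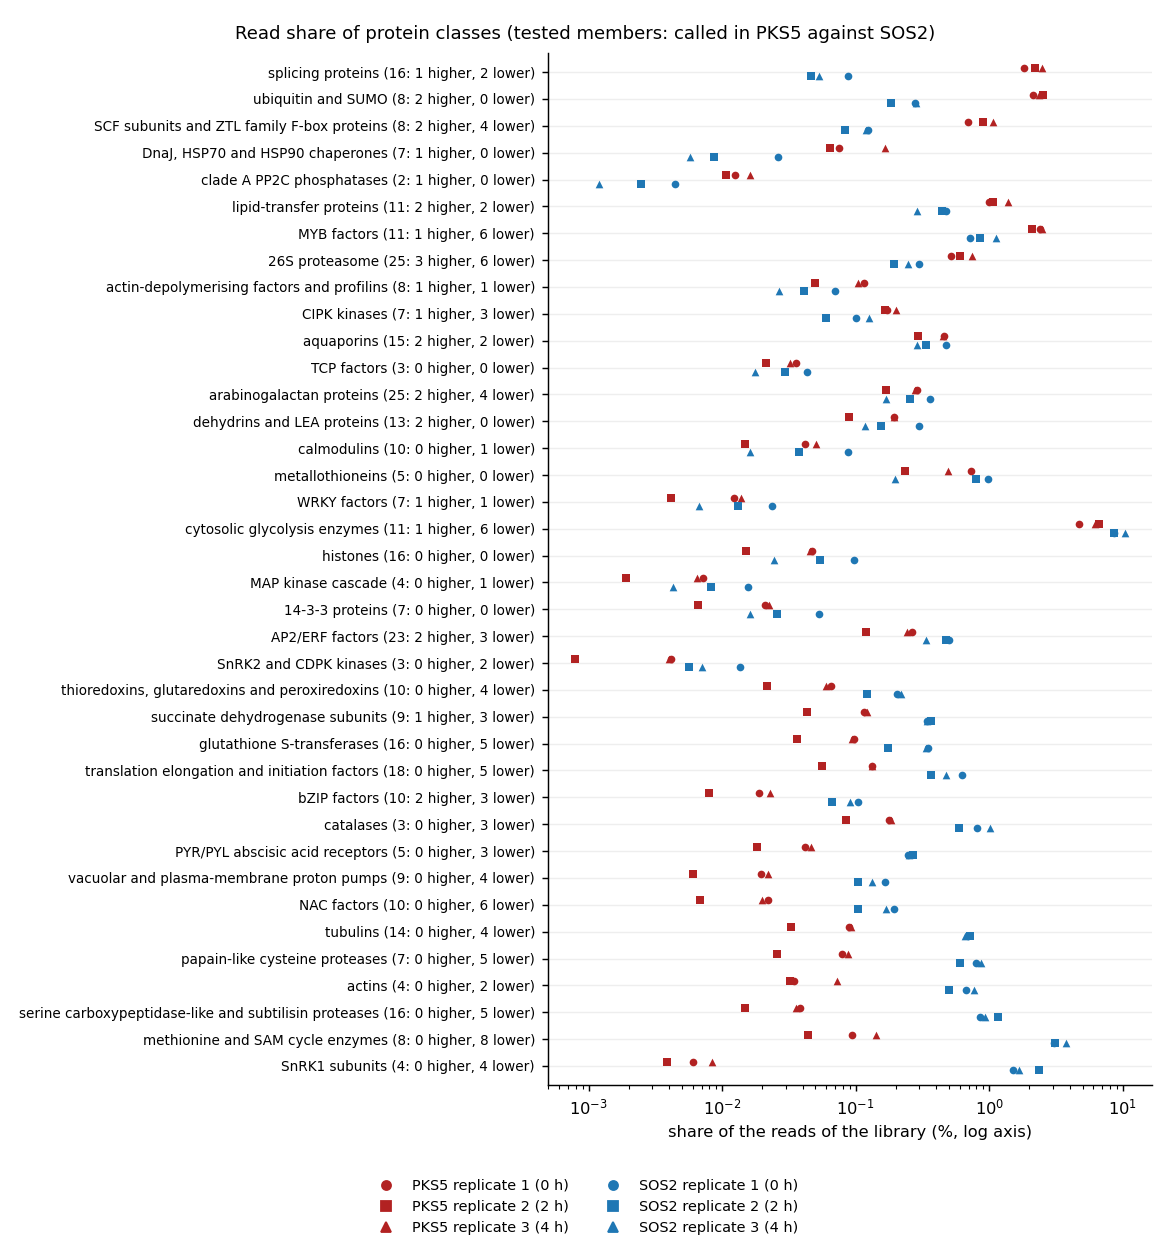
Share of the reads of each library (%, log axis) taken by each of 38 protein classes with tested members, red for PKS5 and blue for SOS2, sorted by the ratio of PKS5 over SOS2 means. Labels give the tested members and how many were called higher or lower in PKS5, and the SnRK1 subunits lie farthest to the SOS2 side.

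SnRK1, the heterotrimeric kinase that senses low energy and is related to the CIPK family, had the lowest share ratio of PKS5 over SOS2 among the 39 classes. Its subunits took 0.00602, 0.00383 and 0.00838% of the reads in PKS5 libraries and 1.50, 2.36 and 1.67% in SOS2 libraries. All 4 tested members were called lower, against 26.4% of all tested genes, and AKINBETA1 alone made up 97.7% of the class. AT4G16360, listed in RefSeq as KINbeta2, had 2.37, 0 and 4.79 CPM in PKS5 libraries, against 276, 163 and 225 CPM in SOS2 libraries (limma-voom log2 difference of -6.81 with SE 0.82, adjusted p = 2.39e-08). The gamma-type subunit KING1 had 7.58, 0.330 and 5.26 CPM in PKS5 libraries, against 157, 121 and 76.3 CPM in SOS2 libraries (log2 difference -4.71). The catalytic subunit KIN10 had 4.74, 0 and 6.70 CPM in PKS5 libraries, against 106, 54.8 and 88.5 CPM in SOS2 libraries (log2 difference -4.69). Catalytic and regulatory subunits were each higher in every SOS2 library, and their calls held under each alternative that tested them. KIN11, the other catalytic subunit, was at or below 3 reads in every library and was not tested.

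Of the CIPK family itself 16 genes were in the table and 7 were tested, of which 1 was called higher and 3 lower in PKS5. These are 14.3 and 42.9%, against 7.07 and 26.4% of all tested genes. The 1 higher was SIP4, the RefSeq symbol of the PKS5 gene. It had 1659, 1648 and 1933 CPM in PKS5 libraries, against 701, 426 and 926 CPM in SOS2 libraries (limma-voom log2 difference of 1.85 with SE 0.63, adjusted p = 0.02) and held 88.4% of the reads of the class. Its call was lost under 4 of 14 alternatives (adjusted p range 1.46e-07 to 0.878), and with distinct reads the difference turned to -0.08, adjusted p = 0.878. Whether these reads came from preys or from the bait plasmid was not tested. The SOS2 gene had 0, 0 and 0.479 CPM in PKS5 libraries, against 2.73, 6.66 and 1.52 CPM in SOS2 libraries. It was below the filter on low values, and without that filter it was called lower (adjusted p = 0.0116 by limma-voom). CIPK15 had 0.948, 1.98 and 6.22 CPM in PKS5 libraries, against 135, 99.9 and 244 CPM in SOS2 libraries (limma-voom log2 difference of -5.70 with SE 0.75, adjusted p = 1.37e-07), which was no call with distinct reads (adjusted p = 0.168, over all alternatives 1.40e-18 to 0.168). CIPK9 had 2.37, 0.991 and 3.83 CPM in PKS5 libraries, against 57.8, 24.6 and 50.5 CPM in SOS2 libraries (log2 difference -3.81). CIPK7 stood at 7.11, 0.991 and 7.18 CPM in PKS5 libraries, against 26.4, 11.3 and 13.7 CPM in SOS2 libraries, a call lost under 10 of 13 alternatives. CIPK1, CIPK4 and CIPK5 were tested and not called, with log2 differences of -0.88, 1.27 and 0.41. The CBL calcium sensors, the activating partners of both baits in plants, were barely seen. Of 10 genes 7 were in the table and 0 were tested, and the highest value was 5.01 CPM, for CBL10 in SOS2 replicate 1. SOS3 had 0 reads in all 3 PKS5 libraries and in SOS2 replicates 2 and 3, and 0.455 CPM in SOS2 replicate 1.

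Enzymes of methionine and S-adenosylmethionine metabolism were all lower in PKS5. The 8 members were all tested and all 8 were called lower, against 26.4% of all tested genes. Their median log2 difference was -4.17, against -0.13 for all tested genes. The class took 0.0935, 0.0439 and 0.142% of the reads in PKS5 libraries and 3.07, 3.10 and 3.78% in SOS2 libraries. After SAM1 came SAM-2, with 92.4, 34.0 and 121 CPM in PKS5 libraries, against 4579.9, 4049 and 5618 CPM in SOS2 libraries (limma-voom log2 difference of -5.67 with SE 0.57, adjusted p = 8.94e-10), and MTO3, with 199.9, 99.5 and 286 CPM in PKS5 libraries, against 2997, 1879 and 3014 CPM in SOS2 libraries (log2 difference -3.46). These 3 genes encode S-adenosylmethionine synthetases and are similar in sequence. Of the 8 calls 6 also held with distinct reads.

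Cytosolic glycolysis had members on both sides. The class took 5.86 ± 1.04% of the reads in PKS5 and 9.21 ± 1.03% in SOS2, with 1 of 11 tested members called higher and 6 lower. These are 9.09 and 54.55%, against 7.07 and 26.4% of all tested genes. The higher one was PGM3, and without it the class took 0.365 ± 0.101% of the reads in PKS5 and 9.06 ± 0.974% in SOS2. Beside GAPC2 and GAPC1, LOS2, the glycolytic enolase, fell, with 47.9, 19.8 and 40.7 CPM in PKS5 libraries, against 1802, 1074 and 2170.0 CPM in SOS2 libraries (limma-voom log2 difference of -5.21 with SE 0.53, adjusted p = 1.01e-09). Catalases, which break down hydrogen peroxide and which SOS2 binds in published work, took 0.149 ± 0.0557% of the reads in PKS5 and 0.808 ± 0.211% in SOS2, nearly all of it CAT3. CAT3 had 1764, 841 and 1832 CPM in PKS5 libraries, against 8047, 5899 and 10081 CPM in SOS2 libraries (limma-voom log2 difference of -2.10 with SE 0.67, adjusted p = 0.0133), a call lost under 7 of 14 alternatives, with an adjusted p range of 1.38e-08 to 0.616. CAT1 had 0.948, 2.97 and 3.83 CPM in PKS5 libraries, against 56.0, 32.3 and 61.1 CPM in SOS2 libraries, and CAT2 13.7, 2.64 and 6.70 CPM in PKS5 libraries, against 45.5, 14.8 and 17.9 CPM in SOS2 libraries. Both were called lower, and with distinct reads 0 of the 3 catalase calls held. Glutathione S-transferases had 5 of 16 tested members lower (31.2%, near the 26.4% of all tested genes) and 0 higher, and 0 of the 5 calls held with distinct reads. GSTF9 led them with 237, 153 and 332 CPM in PKS5 libraries, against 1944, 1019.7 and 2477 CPM in SOS2 libraries. Of 10 tested thioredoxins, glutaredoxins and peroxiredoxins 4 were lower (40.0%, against 26.4% of all tested genes). The peroxiredoxin TPX1 led them (59.3 ± 35.3 CPM in PKS5 and 1369 ± 567 CPM in SOS2, log2 difference -4.32). Succinate dehydrogenase, complex II of the respiratory chain, had 3 of 9 tested members lower (33.3%, against 26.4% of all tested genes). SDH8 fell by 1.88 log2 units, a call lost under 6 of 14 alternatives, and 1 member, the assembly factor SDHAF2, was higher (61.1 ± 12.6 CPM in PKS5 and 15.1 ± 4.44 CPM in SOS2, a call lost under 2 of 14 alternatives). With distinct reads 0 of these 4 calls held.

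Papain-like cysteine proteases took 0.0786, 0.0257 and 0.0877% of the reads in PKS5 libraries and 0.797, 0.600 and 0.876% in SOS2 libraries, and 5 of 7 tested members were called lower (71.4%, against 26.4% of all tested genes). RD19, a drought-induced protease, had 375, 143 and 452 CPM in PKS5 libraries, against 3906, 3104 and 5202 CPM in SOS2 libraries (limma-voom log2 difference of -3.42 with SE 0.60, adjusted p = 1.45e-05). RD21A had 27.9, 5.95 and 38.8 CPM in PKS5 libraries, against 1469.9, 939 and 1313 CPM in SOS2 libraries (log2 difference -5.62), and the aleurain ALP had 90.5, 29.7 and 90.5 CPM in PKS5 libraries, against 1769.5, 1439 and 1789.9 CPM in SOS2 libraries (log2 difference -4.37). The 5 calls held under each alternative that tested them. Of 16 tested subtilisins and serine carboxypeptidase-like proteins 5 were lower and 0 higher, a share of 31.2%, near that of all tested genes. ARA12, a subtilisin of seed mucilage release, held 88.9% of that class, with 119.9, 62.8 and 117 CPM in PKS5 libraries, against 7497, 10651 and 8453 CPM in SOS2 libraries (limma-voom log2 difference of -6.15 with SE 0.62, adjusted p = 8.33e-10). SCPL11 had 5.69, 0.661 and 2.39 CPM in PKS5 libraries, against 368, 540.3 and 471 CPM in SOS2 libraries, a mean 158 times as high in SOS2.

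Ubiquitin and SUMO genes took 2.13, 2.52 and 2.37% of the reads in PKS5 libraries and 0.280, 0.185 and 0.284% in SOS2 libraries. Of 8 tested genes 2 rose (25.0%, against 7.07% of all tested genes) and 0 fell. Beside UBQ11, UBQ3 had 4538, 4056 and 5674 CPM in PKS5 libraries, against 209.5, 86.0 and 66.9 CPM in SOS2 libraries (limma-voom log2 difference of 5.93 with SE 0.57, adjusted p = 3.45e-10). Polyubiquitin genes are near-identical in sequence, so the copy that was recovered is uncertain. The 26S proteasome, which degrades ubiquitinated proteins, had 3 of 25 tested subunits higher and 6 lower (against 7.07 and 26.4% of all tested genes). RPT2b, an ATPase of the regulatory particle, had 4508, 5678 and 6519.7 CPM in PKS5 libraries, against 309, 287 and 224 CPM in SOS2 libraries (limma-voom log2 difference of 4.78 with SE 0.63, adjusted p = 1.36e-07) and made up 67.6% of the class. Without RPT2b the class took 0.0624 ± 0.0279% of the reads in PKS5 and 0.218 ± 0.0522% in SOS2. Its fellow ATPase RPT1A ran the other way, with 17.1, 5.29 and 19.6 CPM in PKS5 libraries, against 758, 526 and 950.0 CPM in SOS2 libraries (limma-voom log2 difference of -5.52 with SE 0.51, adjusted p = 1.40e-10). Among ATPases RPT4A was higher (232 ± 101 CPM in PKS5 and 27.1 ± 20.9 CPM in SOS2), and of the core subunits PAD1 was lower (5.87 ± 5.51 CPM in PKS5 and 333 ± 93.2 CPM in SOS2). PBG1 was higher and PBC1 lower, at log2 differences of 3.21 and -4.81. The calls of RPT4A, PBG1 and PBC1 were lost with distinct reads (adjusted p = 0.11, 0.904 and 0.216 by limma-voom, where the ranges over alternatives were 3.37e-17 to 0.11, 1.71e-12 to 0.904 and 1.99e-22 to 0.216).

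Subunits of SCF ubiquitin ligases and the light-sensing F-box proteins of the ZTL family also had members on both sides. Of 8 tested members 2 were higher and 4 lower (against 7.07 and 26.4% of all tested genes). With distinct reads 1 of the 2 higher and 1 of the 4 lower calls held. AUF1, an auxin-induced F-box protein, had 6471, 8948 and 10344 CPM in PKS5 libraries, against 128, 120.4 and 104 CPM in SOS2 libraries (limma-voom log2 difference of 6.60 with SE 0.64, adjusted p = 4.72e-10). ZTL, an F-box photoreceptor of the circadian clock, had 0, 0 and 0.957 CPM in PKS5 libraries, against 209, 86.5 and 224 CPM in SOS2 libraries (limma-voom log2 difference of -8.41 with SE 0.94, adjusted p = 5.83e-09). All 3 PKS5 values were at or below 3 reads, so this fitted difference depends on the 0.5 reads added before the log and is no bound, as for other genes at 3 reads or fewer with 1 bait. FKF1, its relative in flowering control, had 138, 54.9 and 168 CPM in PKS5 libraries, against 643, 425 and 736 CPM in SOS2 libraries (log2 difference -2.07), a call lost under 2 of 14 alternatives. The scaffold CUL1 was higher (94.2 ± 82.3 CPM in PKS5 and 10.9 ± 6.58 CPM in SOS2) and the adaptor SKP1 lower (29.9 ± 16.9 CPM in PKS5 and 91.4 ± 42.3 CPM in SOS2). Their calls were lost under 1 of 13 and 6 of 14 alternatives.

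In abscisic acid signalling, called receptors were lower and the called phosphatase was higher in PKS5. PYR/PYL receptors, which bind the hormone and then inhibit clade A PP2C phosphatases, took 0.0416, 0.0181 and 0.0460% of the reads in PKS5 libraries and 0.246, 0.271 and 0.252% in SOS2 libraries. Of 5 tested receptors 3 were called lower (60.0%, against 26.4% of all tested genes). PYL5 had 237, 111 and 253 CPM in PKS5 libraries, against 1870.1, 2152 and 1873 CPM in SOS2 libraries (limma-voom log2 difference of -3.02 with SE 0.55, adjusted p = 3.02e-05), PYL1 had 115, 45.9 and 102 CPM in PKS5 libraries, against 376, 438 and 493 CPM in SOS2 libraries, and PYR1 averaged 33.2 ± 18.1 CPM in PKS5 and 107 ± 42.2 CPM in SOS2. With distinct reads 0 of these 3 calls held, and that of PYR1 was lost under 10 of 14 alternatives. PP2CA, a clade A phosphatase that inactivates SnRK2 kinases, had 111, 102 and 143 CPM in PKS5 libraries, against 15.5, 10.8 and 2.74 CPM in SOS2 libraries (limma-voom log2 difference of 4.36 with SE 0.49, adjusted p = 6.24e-09). With distinct reads it was not called (adjusted p = 0.213, over all alternatives 3.83e-19 to 0.213). ABI1, the other tested phosphatase, had 13.3, 4.96 and 18.2 CPM in PKS5 libraries, against 29.1, 13.8 and 9.12 CPM in SOS2 libraries and was not called (log2 difference -0.13). HAI3, also in the table, had at most 1 read in any library.

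The MYB, bZIP and AP2/ERF transcription factor families had called members on both sides, whereas the called NAC factors were all on the SOS2 side. MYB factors took 2.33 ± 0.208% of the reads in PKS5 and 0.897 ± 0.209% in SOS2, and MYB3 held 81.2% of the class over the 6 libraries. Without MYB3 the class took 0.0117 ± 0.00648% in PKS5 and 0.594 ± 0.140% in SOS2. Of 11 tested MYB genes 6 were lower and 1 was higher (54.55 and 9.09%, against 26.4 and 7.07% of all tested genes). MYB6 had 28.9, 13.2 and 22.5 CPM in PKS5 libraries, against 3313, 4927 and 5742 CPM in SOS2 libraries (limma-voom log2 difference of -7.49 with SE 0.60, adjusted p = 9.87e-12), and MYB112 and MYB4 differed by -7.28 and -5.82 log2 units. NAC factors had 6 of 10 tested members lower (60.0%, against 26.4% of all tested genes) and 0 higher. NAC027 led them (20.7 ± 12.2 CPM in PKS5 and 693 ± 254 CPM in SOS2, log2 difference -4.80), followed by RD26, a dehydration-induced factor (9.50 ± 10.3 CPM in PKS5 and 357 ± 70.6 CPM in SOS2). Among bZIP factors 2 of 10 were higher and 3 lower (against 7.07 and 26.4% of all tested genes). BZIP17 and BZIP28, membrane-bound factors of the endoplasmic reticulum stress response, were both on the SOS2 side. BZIP17 had 0.948, 0.991 and 1.44 CPM in PKS5 libraries, against 506, 419 and 374 CPM in SOS2 libraries (limma-voom log2 difference of -8.10 with SE 0.78, adjusted p = 3.92e-10), and BZIP28 had 0.948, 0.330 and 1.91 CPM in PKS5 libraries, against 161, 66.6 and 188 CPM in SOS2 libraries. TGA1, a factor of the salicylic acid defence response, was on the PKS5 side with 20.4, 11.6 and 22.5 CPM in PKS5 libraries, against 0.911, 0 and 0.304 CPM in SOS2 libraries (limma-voom log2 difference of 5.47 with SE 0.84, adjusted p = 1.92e-06). TGA1 came as 1 distinct read in each PKS5 library, against 1, 0 and 1 in SOS2 libraries, too few to be tested that way. AP2/ERF factors mediate ethylene and stress responses. Of 23 tested members 2 were higher and 3 lower (against 7.07 and 26.4% of all tested genes). The share of lower calls was thus below that of all tested genes. The repressor ERF4 had 802, 577 and 779 CPM in PKS5 libraries, against 196, 136 and 50.2 CPM in SOS2 libraries (limma-voom log2 difference of 3.15 with SE 0.50, adjusted p = 3.50e-06), and ESE3 had 28.9, 17.2 and 57.0 CPM in PKS5 libraries, against 2278, 3144 and 2544 CPM in SOS2 libraries (limma-voom log2 difference of -6.10 with SE 0.56, adjusted p = 1.35e-10).

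Among cytoskeletal genes, the called actins and tubulins were lower in PKS5 and an actin-severing protein was higher. Actins took 0.0345, 0.0321 and 0.0720% of the reads in PKS5 libraries and 0.675, 0.498 and 0.775% in SOS2 libraries, and 2 of 4 tested genes were lower. ACT7, a vegetative actin, had 13.7, 5.29 and 28.7 CPM in PKS5 libraries, against 5261, 4029.5 and 6299 CPM in SOS2 libraries (limma-voom log2 difference of -8.25 with SE 0.60, adjusted p = 2.71e-12). ACT2 had 43.1, 14.2 and 53.1 CPM in PKS5 libraries, against 997, 651 and 951 CPM in SOS2 libraries (log2 difference -4.37). Tubulins had 4 of 14 tested members lower (28.6%, near the 26.4% of all tested genes), led by TUB3 with 72.5, 29.1 and 75.1 CPM in PKS5 libraries, against 3013, 3800.0 and 3390.1 CPM in SOS2 libraries and TUB2 with a log2 difference of -5.91. Of these 4 calls 2 held when distinct reads were counted, and the tubulin share of distinct reads was 0.0499 percentage points higher in PKS5. Reads of actin and of tubulin genes cannot be assigned with certainty, since the copies are alike. ADF4, which severs and depolymerises actin filaments, had 796, 370.4 and 642 CPM in PKS5 libraries, against 14.6, 3.07 and 3.04 CPM in SOS2 libraries (limma-voom log2 difference of 7.05 with SE 0.54, adjusted p = 4.81e-12). Of 8 tested depolymerising factors and profilins it alone was called higher. PFN2, a profilin, was the 1 called lower, and its call was lost under 12 of 14 alternatives.

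J3, the cochaperone known to act with PKS5, was the 1 called gene of 7 tested DnaJ, HSP70 and HSP90 chaperones. The class thus had 14.3% higher and 0% lower, against 7.07 and 26.4% of all tested genes. J3 had 619.7, 600.4 and 1456 CPM in PKS5 libraries, against 21.9, 10.2 and 3.65 CPM in SOS2 libraries (limma-voom log2 difference of 6.84 with SE 0.52, adjusted p = 4.81e-12). All 3 PKS5 values exceeded the SOS2 values, and the call held under each of the 14 alternatives. Its close relative J2 had 16.6, 7.60 and 27.3 CPM in PKS5 libraries, against 36.9, 11.3 and 8.52 CPM in SOS2 libraries, values that overlapped (log2 difference 0.35). Proton pumps of the vacuole and plasma membrane took 0.0158 ± 0.00855% of the reads in PKS5 and 0.134 ± 0.0316% in SOS2. Of 9 tested pump members 4 were lower (44.4%, against 26.4% of all tested genes). DET3, a subunit of the vacuolar pump, had 77.7, 18.2 and 80.9 CPM in PKS5 libraries, against 1263, 861 and 1152 CPM in SOS2 libraries (limma-voom log2 difference of -4.11 with SE 0.50, adjusted p = 2.86e-08). TUF and VHA-A3, further vacuolar pump subunits, differed by -1.43 and -2.47 log2 units, and with distinct reads 1 of the 4 calls held.

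Splicing proteins, among them Sm and SR proteins, took 2.17 ± 0.331% of the reads in PKS5 and 0.0622 ± 0.0222% in SOS2, of which emb1507, the spliceosomal helicase described above, made up 97.5%. Without it the class took 0.0224 ± 0.0106% in PKS5 and 0.0338 ± 0.0207% in SOS2, values that overlapped. The Sm protein SmD3 and the SR protein SCL33 were called lower, SmD3 with 13.2 ± 10.1 CPM in PKS5 and 72.9 ± 22.0 CPM in SOS2 and SCL33 with 0.110 ± 0.191 CPM in PKS5 and 8.40 ± 3.67 CPM in SOS2. The SmD3 call was lost under 2 of 14 alternatives. Lipid-transfer proteins, small secreted lipid carriers, took 1.16 ± 0.210% of the reads in PKS5 and 0.402 ± 0.101% in SOS2. LTP2 had 6632, 8899.6 and 10665 CPM in PKS5 libraries, against 591, 838 and 405 CPM in SOS2 libraries (limma-voom log2 difference of 4.29 with SE 0.68, adjusted p = 3.44e-06), and LTPG2 was also higher, while AZI1 and LTP5 were lower. The calls of LTPG2 and AZI1 were each lost under 1 of 14 alternatives and that of LTP5 under 6. Without LTP2 the class took 0.283 ± 0.0846% in PKS5 and 0.341 ± 0.0874% in SOS2, values that overlapped. Of translation factors 5 of 18 tested were lower (27.8%, near the 26.4% of all tested genes) and 0 higher, and 2 of the 5 calls held with distinct reads. They were led by the elongation factor LOS1 (115 ± 60.9 CPM in PKS5 and 2075 ± 571 CPM in SOS2, log2 difference -3.95). The list of dehydrins and LEA proteins had 2 of 13 genes higher (15.4%, against 7.07% of all tested genes). That share includes the cold-induced COR314-TM2 (433 ± 114 CPM in PKS5 and 52.6 ± 40.5 CPM in SOS2), which is itself neither a dehydrin nor an LEA protein. Arabinogalactan proteins had 2 of 25 higher and 4 lower, against 7.07 and 26.4% of all tested genes. AGP4 had 992, 879 and 1022 CPM in PKS5 libraries, against 224, 141 and 41.4 CPM in SOS2 libraries (log2 difference 3.62), and AGP31 ran the other way, with 72.0, 26.1 and 93.8 CPM in PKS5 libraries, against 365, 362 and 315 CPM in SOS2 libraries. With distinct reads neither was called (adjusted p = 0.165 and 0.105 by limma-voom), and 0 of the 4 lower calls held.

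In several classes the shares of both kinases overlapped and few members were called. The 14-3-3 proteins, phosphopeptide-binding adaptors that inhibit SOS2 in published work, took 0.0166 ± 0.00870% of the reads in PKS5 and 0.0317 ± 0.0191% in SOS2 (exact p = 0.4). Of 7 tested 14-3-3 genes 0 were called by limma-voom and 0 by limma-trend, and 2 had an unadjusted p under 0.05. The highest was GRF6, with 71.5, 25.4 and 77.5 CPM in PKS5 libraries, against 199, 112 and 105 CPM in SOS2 libraries. Every SOS2 value lay above every PKS5 value in GRF6, and its interval ran from -1.79 to -0.12 (adjusted p = 0.073 by limma-voom). The other tested 14-3-3 genes, GRF1, GRF2, GRF3, GRF8, GRF9 and GRF10, had log2 differences from -0.91 to 0.46. Histones had 0 of 16 tested members called, metallothioneins 0 of 5 and TCP factors 0 of 3 by limma-voom, and the same by limma-trend. At an unadjusted p under 0.05 there were 1, 0 and 0 of them. Metallothioneins took 0.487 ± 0.249% of the reads in PKS5 and 0.657 ± 0.410% in SOS2, and MT2A made up 70.3% of them. Aquaporins took 0.401 ± 0.0942% of the reads in PKS5 and 0.365 ± 0.0980% in SOS2 (exact p = 0.9). Of 15 tested aquaporins 2 were higher and 2 lower (13.3% each, against 7.07 and 26.4% of all tested genes), and with distinct reads 0 of these calls held. Calmodulins, WRKY factors and MAP kinase cascade members had 1 of 10, 2 of 7 and 1 of 4 tested members called, against 33.5% of all tested genes.

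A list of 10 loci that holds the leading genes AT1G70790 and AT5G37740 was followed as well. Of the loci in the table the reference gives a name to EHB1 (ENHANCED BENDING 1). Of these loci 6 were in the table and 4 were tested, and 3 were called higher and 0 lower, against 7.07% of all tested genes called higher. The list was chosen with earlier results of these data known, and AT1G70790 and AT5G37740 are among the 3, so this count is a description. Beside those leading genes, AT2G01540 had 10397, 3118 and 2531 CPM in PKS5 libraries, against 396, 251 and 175 CPM in SOS2 libraries (limma-voom log2 difference of 4.50 with SE 0.61, adjusted p = 2.05e-07). AT1G70790, EHB1 (AT1G70800) and AT1G70810 are neighbours by locus number. AT1G70810 had 2.84, 0.991 and 5.74 CPM in PKS5 libraries, against 5.46, 5.63 and 2.43 CPM in SOS2 libraries (log2 difference -0.09) and was not called. EHB1 had 4, 7 and 6 reads in PKS5 libraries and 0 in each SOS2 library, below the filter on low values. Without that filter it was called higher (adjusted p = 9.46e-05 by limma-voom).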

How the data were processed

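Inserts of an Arabidopsis cDNA library carried by selected yeast colonies were sequenced. Per the labels' protocols, inserts were amplified by PCR from plasmids, sheared to 200 to 300 bp, ligated to adaptors and enriched by a further PCR for fragments with 29 bp of vector sequence. A gene's reads mark vector-insert junctions, and no length correction was made. Tools listed in the submitters' processing notes are cutadapt 1.18, HISAT2 and CASAVA, with TAIR10 as the genome build. How reads were counted per gene is not given there.

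The authors deposited whole-number read counts and distinct-read counts per gene, not normalized, per the file headers. Of 61344 cells 18335 were marked as empty and read as 0. Columns of the other bait in the table (SCAB1) were not used. The deposited symbols are locus numbers, and 10201 of 10224 matched the RefSeq table (assembly TAIR10.1), which gave gene symbols and no coordinates, and 23 did not.

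The planned count test was replaced by limma-voom (limma 3.58.1, R 4.3.3), because cells with text marks kept the columns from being accepted as plain counts. It used TMM factors (30 and 5% trimmed, 0.397 in PKS5 replicate 2 to 2.19 in SOS2 replicate 1), an offset of 0.5 reads, robust variance and Benjamini-Hochberg adjustment over 3453 genes with 98.3 to 99.8% of the reads. Log2 differences are PKS5 over SOS2 and include these factors, whereas CPM values do not. The fit was also run on simulated data with the same mean profile for both baits, apart from a set of changed genes. Its TMM factors were 0.898 to 1.06, so that run could not check the scaling at the uneven composition found here. Breadth and class shares were compared by exact permutation tests (Python 3.11.15, scipy 1.17.1). No library was a copy (chi-square per degree of freedom 17.2 to 62.2 between libraries sharing a bait). Alternatives changed the scaling, the filter, the counted reads, the weights, the block, the shared-prey minimum and the libraries used.

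Genes named in the text were the 10 highest called per direction without overlap, the 10 highest similar preys, up to 3 called members per class and direction, all members of 7 small lists, the bait genes, J3 and J2. Members, lists and rules were chosen with earlier results of these data known.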

Additional observations from a re-analysis of the deposited data

How the results depend on the processing

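The direction of every called gene among the 20 leading preys held in the 14 alternative fits, whereas counts moved with the choices made. With library size alone 123 genes were called higher, with at least 100 reads per gene 436 higher and 418 lower (of 1044 tested), and with distinct reads 158 higher and 359 lower. The share of higher calls was 14.01% with library size alone, 51.1% with at least 100 reads, 31.1% with relative log expression factors and 30.6% with distinct reads, against 21.1% in the reported fit, and 20.8 to 36.9% when 1 library was left out, the highest without SOS2 replicate 3. Leaving out 1 library gave 218 to 348 genes called higher and 596 to 836 called lower, the lowest without SOS2 replicate 3. Shared preys numbered 206 at 50 CPM, 30 at 500 CPM and 1224 with distinct reads, and similar preys 96, 12 and 762. Libraries held 22024 to 47817 distinct reads, where 100 CPM stands for only a few reads, so the counts with distinct reads are not like for like. Leaving out 1 library gave 120 to 184 shared preys, the highest without PKS5 replicate 2, and 31 to 69 similar ones, the lowest without SOS2 replicate 3. No similar prey (0) had an interval within 1 log2 unit of 0. The difference in the share of the 10 highest genes turned to -0.168 percentage points with distinct reads. With distinct reads the difference in class read share also turned, to -0.0346 percentage points for CIPK kinases, 0.00899 for catalases, 0.0124 for glutathione S-transferases, 0.141 for AP2/ERF factors and 0.0499 for tubulins. Without its highest member the difference turned to -0.0222 for CIPK kinases, -0.000491 for clade A PP2C phosphatases, -0.000232 for chaperones, -0.155 for the 26S proteasome, -0.0691 for SCF and ZTL family proteins, -0.582 for MYB factors, 0.0327 for AP2/ERF factors, -0.0114 for splicing proteins and -0.0575 for lipid-transfer proteins (percentage points). Single genes turned with distinct reads too, with log2 differences of -0.0809 for SIP4, 0.0193 for CAT2, 0.11 for SmD3, 0.18 for TUF and 0.27 for SDH8. With at least 100 reads SKP1 (0.0901), PFN2 (0.34) and AGP2 (0.0793) turned. The causes were not tested.

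Replicate numbers mark recovery times, which same-numbered libraries share. Deviations of same-numbered libraries correlated at 0.145, -0.024 and 0.005, and those of differently numbered ones at -0.226 to 0.195. With 3 libraries per bait these values cannot decide whether the numbers pair the libraries, and the reported fit used no pairing. With the replicate block 278 genes were called higher and 933 lower. Precision is limited by 3 libraries per bait, by PCR copies in the read numbers and by the lack of an unselected library.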
